A study of Mus musculus with 5 samples.

Results

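miR-26a and miR-26b are the major mature microRNAs (miRNAs) of a small conserved family, and were picked here by their names in the files, mmu-miR-26a and mmu-miR-26b, as 2 of the 593 mouse miRNA names that had a count in any of 5 small RNA libraries of mouse testis cells. The libraries were 1 of a germ cell culture kept for about 10 passages, 2 of freshly isolated Thy1+ testis cells and 2 of freshly isolated Thy1- testis cells. All came from C57BL/6 mice, and all labels name the same Thy1.2 antibody for magnetic cell sorting (MACS). No age or treatment is given. Thy1 is found on the surface of spermatogonial stem cells, the self-renewing cells of the male germline, and serves to enrich them. The sorted fractions are enriched mixtures and not pure cells, and the cell type field of the Thy1- libraries carries the stem cell name whereas their titles and source field describe a stem cell depleted, somatic-rich fraction. The titles were followed. The labels do not say whether replicates came from separate animals, so every p-value measures only the spread between these libraries, and the culture is a single library.

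An miRNA guides a silencing complex to messenger RNAs that pair with its seed, bases 2 to 8 from its 5′ end. The miR-26 genes lie inside genes of the CTDSP family, whose products are small phosphatases that act on RNA polymerase II and on the retinoblastoma protein, and miR-26 is best known for repressing Ezh2, the histone methyltransferase of Polycomb repressive complex 2, and for restraining the cell cycle. In the GRCm38.p6 assembly the miR-26a sequence is encoded at chr9:119031811-119031832 (hairpin Mir26a-1, inside an intron of Ctdspl) and again at chr10:126995543-126995564 (hairpin Mir26a-2, overlapping an annotated exon of Ctdsp2). miR-26b is encoded at chr1:74394324-74394344, inside an intron of Ctdsp1. All 3 lie on the plus strand, as do their host genes. The 2 miR-26a hairpins give the same mature sequence, so their products cannot be told apart. The mature sequences, from RefSeq, are shown with the seed in capitals; the seed is shared.
miR-26a: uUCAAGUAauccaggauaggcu
miR-26b: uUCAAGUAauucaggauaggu
Counted from the 5′ end, the mature sequences differ at positions 11 and 21, both C in miR-26a and T (U in the RNA) in miR-26b, and in length, 22 bases against 21. The Mir26b hairpin, chr1:74394310-74394394 on the plus strand, continues with another U after the annotated end. The 22-base run that starts at the first base of miR-26b is in capitals.
Mir26b hairpin: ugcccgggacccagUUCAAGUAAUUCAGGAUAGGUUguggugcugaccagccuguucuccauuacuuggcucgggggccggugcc

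The length difference decided under which name a read was filed. No tag in the files reached past the annotated end of the mature miRNA it was placed on, and at most 2 mismatches were allowed. A 22-base read of miR-26b therefore had no place under miR-26b, but could be placed on the longer miR-26a with exactly 2 mismatches, C11T and C21T. The most abundant tags of both members are printed below, with the discriminating bases in capitals, because they carry the finding.
miR-26a, 20 bases: ttcaagtaatCcaggatagg
miR-26a, 21 bases: ttcaagtaatCcaggataggC
miR-26a, 22 bases: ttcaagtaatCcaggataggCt
miR-26b, 20 bases: ttcaagtaatTcaggatagg
miR-26b, 21 bases: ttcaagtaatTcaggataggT
22 bases, filed under miR-26a with 2 mismatches: ttcaagtaatTcaggataggTt
The last of these matched the Mir26b hairpin in full. It had 3723 reads in the culture, 528 and 899 in the Thy1+ libraries and 2411 and 2625 in the Thy1- libraries. In every library it outnumbered each of the tags filed under miR-26b: the perfect 21-base tag of miR-26b had 984 reads in the culture, 122 and 227 in Thy1+ and 1370 and 981 in Thy1-, and the 20-base tag had 832 in the culture, 106 and 142 in Thy1+ and 766 and 875 in Thy1-.

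Reads with T at position 11 made up 11.3% of the reads filed under miR-26a in the culture, 14.5% and 19.5% in the Thy1+ libraries and 16.1% and 13.3% in the Thy1- libraries. Seen from the other side, 63.8% of all T11 reads of the family in the culture, 66.6% and 68.1% in Thy1+ and 49.5% and 55.7% in Thy1- were filed under miR-26a. Tags with 2 mismatches took 11.4% of miR-26a reads in the culture, 14.5% and 19.2% in Thy1+ and 16.1% and 13.0% in Thy1-, whereas the median over the 82 miRNA names with at least 1000 reads in every library was 0.462% in the culture, 0.447% and 1.05% in Thy1+ and 0.654% and 0.921% in Thy1-. At most 2 of those names exceeded miR-26a in any library.

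The base at position 21 gave a check of this reading. Among 22-base reads with T at position 21, T at position 11 was present in 99.6% in the culture, 99.8% and 99.8% in Thy1+ and 99.8% and 99.6% in Thy1-. Among 22-base reads with C at position 21, T at position 11 was found in 0.315% in the culture, 0.243% and 1.86% in Thy1+ and 0.564% and 2.18% in Thy1-. Both discriminating bases thus changed together in nearly all reads, in all 5 libraries. Levels are therefore given in both ways below: as filed, under the name with the fewest mismatches, and sorted by base 11 (C to miR-26a, T to miR-26b). The sorting was chosen after the tags were seen.

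miR-26a was an abundant miRNA in all libraries. As filed, its level in counts per 1000000 miRNA counts (CPM) was 6602 in the culture, 3987 and 5154 in the Thy1+ libraries and 6114 and 4342 in the Thy1- libraries, which ranked it 27th of 510 names in the culture, 48th and 46th in Thy1+ and 28th and 36th in Thy1-. Sorted by base 11, it was 5866 CPM in the culture, 3412 and 4151 in Thy1+ (3782 ± 523, SD, n = 2) and 5140 and 3772 in Thy1- (4456 ± 967, SD, n = 2). In either way of counting the culture was above all 4 fresh libraries, and the Thy1+ and Thy1- ranges overlapped. The share of all miRNA names with the culture above all 4 in CPM was not computed. With n = 2 per group, the overlap is a description and does not show that the fresh groups were equal.

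miR-26b was the minor member. Its level as filed was 435 CPM in the culture, 292 and 481 in Thy1+ (387 ± 133, SD, n = 2) and 1023 and 467 in Thy1- (745 ± 394, SD, n = 2). Sorted by base 11 it was 1171 CPM in the culture, 867 and 1484 in Thy1+ (1175 ± 436, SD, n = 2) and 1997 and 1037 in Thy1- (1517 ± 679, SD, n = 2). Sorting moved it up to rank 66 in the culture (100 as filed), to 116 and 92 in Thy1+ (165 and 147 as filed) and to 68 and 88 in Thy1- (94 and 117 as filed). The culture lay inside the range of the fresh libraries, and the fresh groups overlapped, in either way of counting. Both members together took 0.704% of miRNA counts in the culture, 0.428% and 0.563% in Thy1+ and 0.714% and 0.481% in Thy1-.

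**Figure D1:**
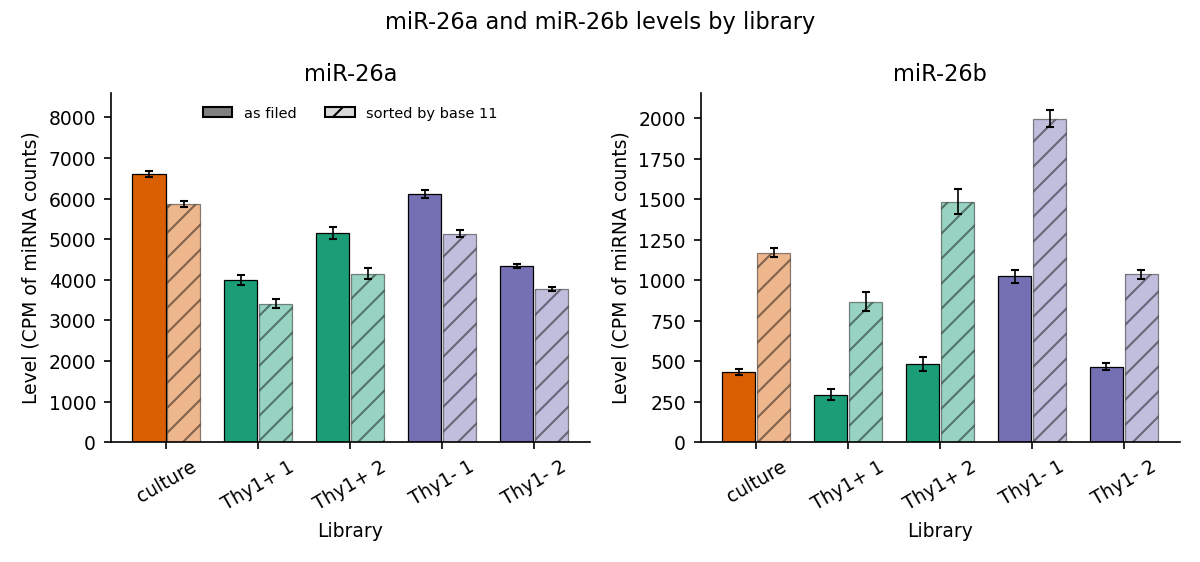
Level of miR-26a (left) and miR-26b (right) in CPM of miRNA counts, by library; filled bars are reads as filed, hatched bars the same reads sorted by base 11, and error bars are 95% Clopper-Pearson intervals, which cover counting error only. miR-26b as filed was 435 CPM in the culture and 1171 CPM after sorting, and the highest bar for miR-26b in both ways of counting is Thy1- library 1.

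In the fit over all miRNAs, no member passed the test between the fresh fractions. The comparison asked which miRNAs set the stem cell rich fraction apart from the rest of the testis. For miR-26a the log2 fold change of Thy1+ over Thy1- was -0.75 (SE 0.43, adjusted p = 0.229, edgeR quasi-likelihood test with Benjamini-Hochberg adjustment over 425 miRNAs), and for miR-26b it was -1.48 (SE 0.54, edgeR adjusted p = 0.0721). Of all miRNAs tested, 20.5% were called higher and 7.76% lower in Thy1+, 28.2% in either direction, against 0 of 2 members. With reads sorted by base 11 the values were -0.78 (edgeR adjusted p = 0.206) for miR-26a and -0.92 (edgeR adjusted p = 0.202) for miR-26b. The larger difference of miR-26b as filed thus moved by over 1.5 times with the sorting. miR-26b as filed passed the threshold in DESeq2 (-1.53, adjusted p = 0.0316) and in edgeR without Thy1- replicate 2 (-1.83, adjusted p = 0.0342), whereas without Thy1- replicate 1 it was at -0.83 (edgeR adjusted p = 0.395).

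Against the Thy1+ fraction, miR-26a was called higher in the 1 culture library under TMM scaling, and not under total scaling. This comparison asked what long-term culture of stem cell enriched cells changed. The log2 fold change of miR-26a was 2.20 (SE 0.53, edgeR adjusted p = 0.0240), the culture being above both Thy1+ libraries in CPM, and 2.37 when sorted by base 11 (edgeR adjusted p = 0.0199). miR-26b did not pass: 1.85 as filed (SE 0.64, edgeR adjusted p = 0.0655) and 1.76 sorted (edgeR adjusted p = 0.0655). Of 470 miRNAs tested, 8.94% were called higher and 13.4% lower in the culture than in Thy1+, 22.3% in either direction, so that 1 of 2 members was called higher where 8.94% of all were. Whether the 2 members differed in their response was not tested.

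The call of miR-26a has no replicate of the culture behind it, and it rested on the scaling. The fold changes above use TMM scaling, which sets the bulk of miRNAs equal between libraries; its factor was 0.472 for the culture, 1.36 and 1.63 for Thy1+ and 1.08 and 0.880 for Thy1-. With total counts as the scale, the median over all miRNAs shifted on the log2 scale by 0.58 in Thy1+ over Thy1-, by -1.64 in culture over Thy1+ and by -1.04 in culture over Thy1-. Under total scaling miR-26a was 0.53 higher in the culture than in Thy1+ on the log2 scale (edgeR adjusted p = 0.437), or 0.63 when sorted (edgeR adjusted p = 0.354), and it was no longer called. miR-26b under total scaling was at 0.17 in culture over Thy1+ as filed (SE 0.75) and at -0.0052 sorted (SE 0.69), and it was not called. In Thy1+ over Thy1- the total count values were -0.19 for miR-26a and -0.95 for miR-26b as filed, and neither was called. The call of miR-26a was also lost without Thy1+ replicate 1 (2.12, edgeR adjusted p = 0.150), without Thy1+ replicate 2 (1.93, edgeR adjusted p = 0.198) and without Thy1- replicate 1 (1.90, edgeR adjusted p = 0.0516).

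Against the Thy1- fraction, neither member passed. The log2 fold change of culture over Thy1- was 1.40 for miR-26a (SE 0.54, edgeR adjusted p = 0.0723) and 0.32 for miR-26b (SE 0.66, edgeR adjusted p = 0.734), against 18.1% of 470 miRNAs called higher and 16.8% called lower, 34.9% in either direction. Sorted by base 11 the values were 1.54 (edgeR adjusted p = 0.0508) and 0.79 (edgeR adjusted p = 0.338). Under total counts miR-26a was lower, at 0.34 as filed and 0.40 sorted. For miR-26b the sign depended on the scaling, with -0.78 as filed and -0.37 sorted under total counts. This comparison shares the culture library with the preceding one, and both fits take their spread from the fresh libraries, since the culture has no replicate.

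**Figure D2:**
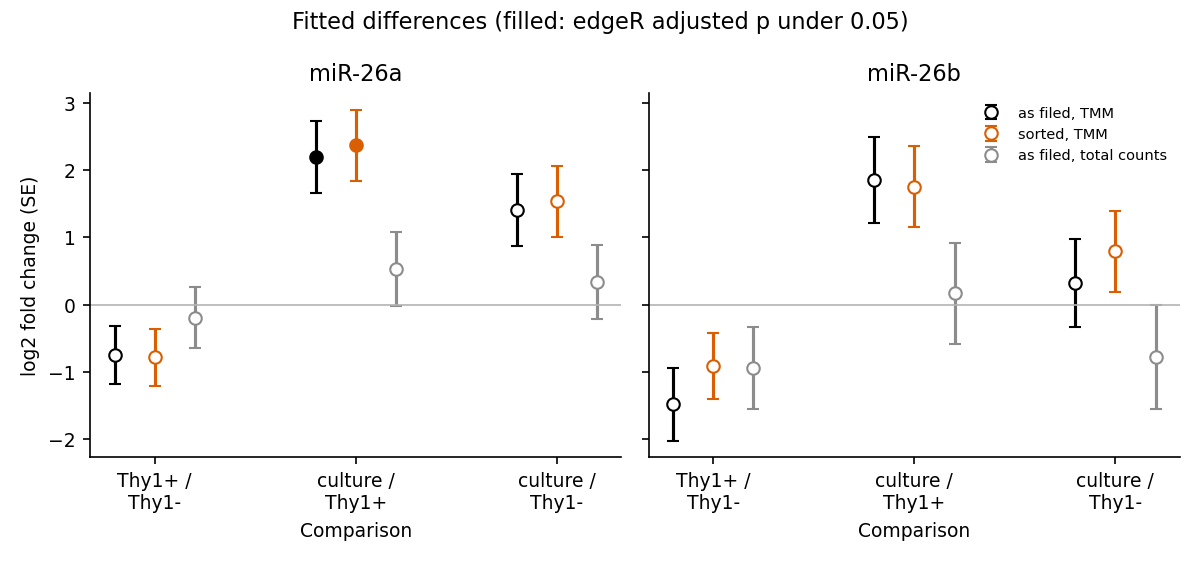
Fitted log2 fold changes with SE for miR-26a (left) and miR-26b (right) in the 3 comparisons, as filed with TMM scaling, sorted by base 11 with TMM scaling, and as filed with total count scaling; filled points have an edgeR adjusted p under 0.05. The filled points are miR-26a in culture against Thy1+ under TMM scaling, at 2.20 as filed and 2.37 sorted; under total counts that value is 0.53 and open.

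The ratio of the members within a library needs no scaling between libraries, but it depended on the filing. As filed, there were 15.2 miR-26a reads per miR-26b read in the culture, 13.6 and 10.7 in Thy1+ and 5.97 and 9.30 in Thy1-, so that both Thy1+ libraries lay above both Thy1- libraries. Sorted by base 11, the ratio was 5.01 in the culture, 3.94 and 2.80 in Thy1+ and 2.57 and 3.64 in Thy1-, and the fresh groups overlapped. The log2 ratio as filed was 3.60 ± 0.25 in Thy1+ and 2.90 ± 0.45 in Thy1- (SD, n = 2 each), a difference of 0.70 (exact permutation test, two-sided, p = 0.333, the smallest p a design of 2 against 2 can give). Sorted, it was 1.73 ± 0.35 in Thy1+ and 1.61 ± 0.35 in Thy1- (SD, n = 2 each), a difference of 0.12 (exact permutation p = 0.667). The culture's sorted log2 ratio of 2.32 was 0.59 above the Thy1+ mean and 0.71 above the Thy1- mean, a description of 1 library with no test.

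Put as shares, miR-26b held 6.18% of the reads of both members in the culture as filed (95% interval 5.93% to 6.43%), 6.83% and 8.54% in Thy1+ and 14.3% and 9.71% in Thy1-. After sorting it held 16.6% in the culture (95% interval 16.3% to 17.0%), 20.3% and 26.3% in Thy1+ and 28.0% and 21.6% in Thy1-. The culture had the lowest share in both ways of counting. Among full-length 22-base reads alone, the count of miR-26a per miR-26b read was 2.29 in the culture, 2.32 and 1.87 in Thy1+ and 1.66 and 1.86 in Thy1-. These values lean towards miR-26a, whose reads could hold 2 further mismatches, whereas those of miR-26b had used both. In the culture, 7998 of the 8546 miR-26a reads were the perfect tag, against 3723 of 3733 for the 22-base miR-26b tag. Sorting by base 11 can misplace a miR-26a read in which C was misread as T. At the share of T11 seen among C21 reads, 55.2 of 954 T11 reads of 20 bases would be such reads in the culture, 3.52 of 124 and 28.2 of 171 in Thy1+, and 32.6 of 872 and 228 of 1021 in Thy1-. The estimate takes every T11 read with C21 as a misread, which was not tested. The 22-base miR-26a tag changed only by C11T had 18 reads in the culture, 1 and 22 in Thy1+ and 17 and 62 in Thy1-. In the same order, C3T alone had 15, 1, 8, 6 and 26 reads, and C12T alone had 10, 3, 8, 5 and 23.

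**Figure D3:**
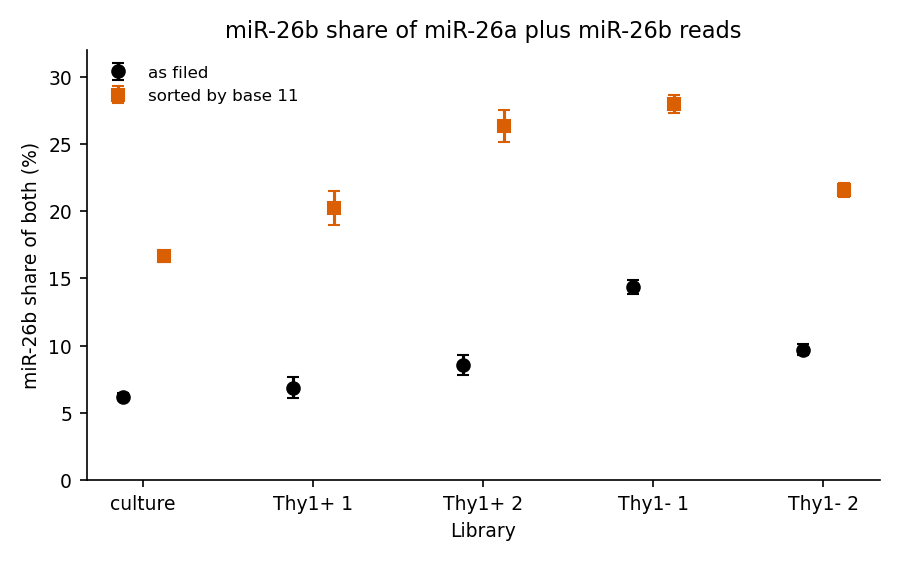
Share of miR-26b among the reads of miR-26a and miR-26b together, in percent, by library, as filed and sorted by base 11; error bars are 95% Clopper-Pearson intervals and cover counting error only. As filed the Thy1+ libraries (6.83% and 8.54%) lie below the Thy1- libraries (14.3% and 9.71%); after sorting all values are higher and the fresh groups overlap.

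The members differed in where their reads ended. Of miR-26a reads that started at base 1, sorted by base 11 and counting only reads without an untemplated last base as ending at a position, the largest class ended at base 20 in 4 of 5 libraries: 57.8% in the culture, 45.3% and 38.3% in Thy1+ and 44.0% and 56.4% in Thy1-. Reads that ended at the annotated base 22 were 27.9% in the culture, 38.3% and 42.5% in Thy1+ and 30.7% and 26.3% in Thy1-, or, with untemplated last bases included, 29.0% in the culture, 39.2% and 43.6% in Thy1+ and 31.5% and 27.0% in Thy1-. Thy1+ library 2 was the exception, with base 22 ahead of base 20. Base 21 held 8.08% in the culture, 8.74% and 12.6% in Thy1+ and 19.2% and 8.87% in Thy1-, and was the smallest of these 3 classes in each library. Base 19 held 2.57% in the culture, 5.003% and 3.56% in Thy1+ and 3.25% and 4.95% in Thy1-.

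miR-26b, counted in the same way, ended most often at base 22, 1 base past its annotated end. Base 22 held 63.6% of its reads in the culture, 66.3% and 67.6% in Thy1+ and 49.2% and 54.9% in Thy1-. The annotated base 21 held 17.4% in the culture, 15.9% and 16.8% in Thy1+ and 29.7% and 20.8% in Thy1-, or, with untemplated last bases included, 18.2% in the culture, 16.1% and 17.4% in Thy1+ and 30.6% and 21.7% in Thy1-. Base 20 held 15.6% in the culture, 14.3% and 12.3% in Thy1+ and 17.0% and 19.8% in Thy1-. These shares include any miR-26a reads misplaced by the sorting, as estimated above. Base 19 held 1.08% to 1.89% over the 5 libraries. The share that ended at base 22 was higher for miR-26b than for miR-26a in 5 of 5 libraries, by 18.6 to 35.7 percentage points. This is a description with no test, since the abundant 22-base tag of miR-26b had prompted the sorting. Reads longer than 22 bases could not be filed under either member, so ends beyond base 22 were not measured.

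For both members the sorted reads of the Thy1+ libraries ended later than those of the Thy1- libraries. The mean last base of miR-26a was 20.62 in the culture, 20.79 and 20.94 in Thy1+ and 20.78 and 20.55 in Thy1-, a Thy1+ minus Thy1- difference of 0.199 bases (exact permutation p = 0.333, two-sided). For miR-26b it was 21.42 in the culture, 21.45 and 21.49 in Thy1+ and 21.25 and 21.27 in Thy1-, a difference of 0.208 bases (exact permutation p = 0.333). The groups did not overlap for either member, though for miR-26a the nearest libraries, at 20.79 and 20.78, were almost level. Sorted miR-26b includes any misread miR-26a reads of 20 bases, estimated above at 3.52 of 124 and 28.2 of 171 in Thy1+. In Thy1- the estimate was 32.6 of 872 and 228 of 1021. Furthermore, a 22-base miR-26b read with another mismatch could not be filed, whereas shorter ones could. The part of either in these differences was not tested. Of 106 miRNA names with at least 500 reads in each library, as filed, 33.0% had longer and 2.83% shorter reads in Thy1+ with no overlap between the groups. The culture lay among the fresh libraries for both members, whereas it was above all 4 for 37.7% of those names and below all 4 for 15.1%. As filed, the miR-26a values overlapped (20.96 and 21.15 in Thy1+, 20.97 and 20.74 in Thy1-), and the miR-26b difference was -0.0602 bases (exact permutation p = 0.667), so the direction for miR-26b reversed with the filing.

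**Figure D4:**
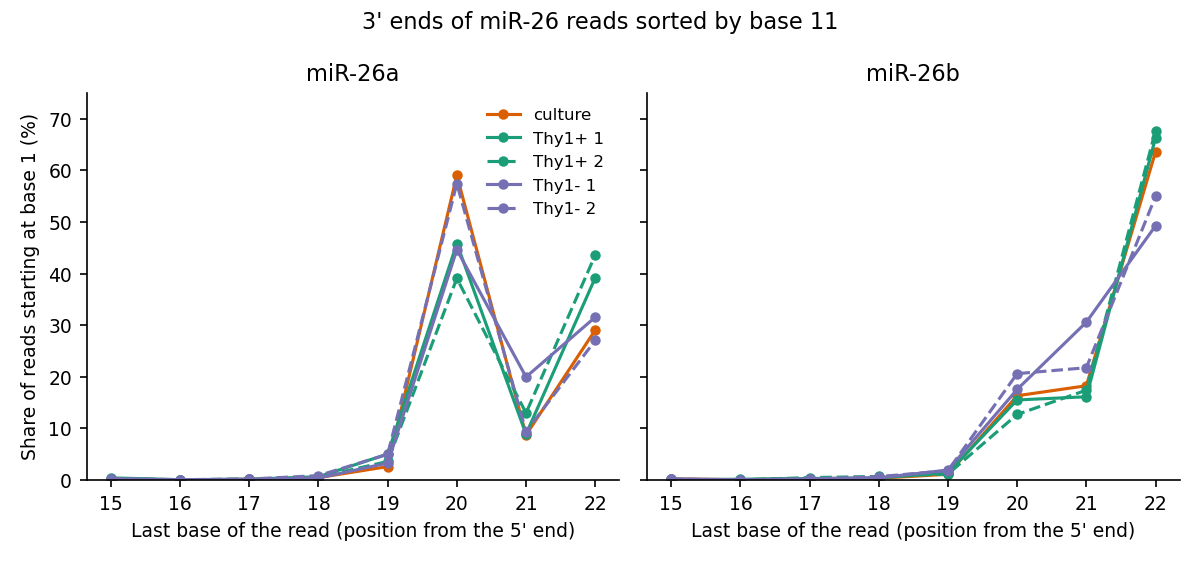
Share of reads starting at base 1 (percent) by the position of the last base, for miR-26a (left) and miR-26b (right), sorted by base 11, with 1 line per library; reads with an untemplated last base are included at their last position. The miR-26a lines peak at base 20 and again at base 22, and the miR-26b lines peak at base 22, with the Thy1- libraries lowest there.

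No 3′ end variant of either member was called in a test of whether a variant takes another share of its own miRNA (edgeR diffSpliceDGE over all variants). For Thy1+ against Thy1-, 0 of 1599 variants of all miRNAs passed (0.0%), with 21 at an unadjusted p under 0.05, and 0 of the 15 member variants tested were at that level. For culture against Thy1+, 0.129% of 2327 variants passed and 0 of 22 member variants did, with 1 at an unadjusted p under 0.05, miR-26a ending at base 21 with an untemplated A. For culture against Thy1-, 0.172% of 2327 passed and 0 of 22 member variants did, with 1 at an unadjusted p under 0.05, miR-26a ending at base 22 with an untemplated G. Sorting by base 11 left these counts of member calls at 0 of 17, 0 of 24 and 0 of 24.

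Untemplated last bases were a small class. Added uridines on miR-26 are known in human lung cells, where the uridylyltransferase ZCCHC11 places them. Of miR-26a reads starting at base 1, sorted by base 11, 3.01% had an untemplated last base in the culture, 1.46% and 2.13% in Thy1+ and 2.25% and 2.32% in Thy1-. Most of these ended in A: 1.94% of reads in the culture, 0.887% and 1.39% in Thy1+ and 1.23% and 1.61% in Thy1-. An untemplated T was seen in 0.643% in the culture, 0.348% and 0.386% in Thy1+ and 0.718% and 0.581% in Thy1-. Base 22 of miR-26a is itself T, so a T added after base 21 was counted as templated. A read with a base added after base 22 could not be filed. The share of T is thus a part of any added T, and it cannot be weighed against the share of A.

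The most abundant tailed tags are printed with the untemplated base in capitals, to show how they differ from the 22-base and 20-base forms above.
miR-26a, A in place of base 22: ttcaagtaatccaggataggcA
miR-26a, A in place of base 20: ttcaagtaatccaggatagA
The first had 207 reads in the culture, 20 and 27 in Thy1+ and 87 and 111 in Thy1-. The second had 243 reads in the culture, 7 and 19 in Thy1+ and 40 and 129 in Thy1-. A misread last base gives the same tags, and its part in these counts was not tested. For miR-26b, 1 untemplated variant reached 1% of reads in any library, A in place of base 20, at 0.592% in the culture, 1.24% (10 reads) and 0.326% in Thy1+ and 0.379% and 0.689% in Thy1-. Over all untemplated last bases its share was 1.62% in the culture, 1.61% and 1.09% in Thy1+ and 1.45% and 1.82% in Thy1-, but it is not comparable with that of miR-26a: both bases after position 20 are T, so an added T there cannot be seen, and a 22-base read with another last base would need 3 mismatches if it kept T at position 21, or had to lose that T, to be filed at all.

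The 5′ end, which sets the seed, hardly varied. Reads starting at base 1 were 99.1% of miR-26a reads in the culture, 98.8% and 98.9% in Thy1+ and 98.9% and 98.4% in Thy1-, and for miR-26b 98.9% in the culture, 99.4% and 98.2% in Thy1+ and 98.6% and 98.3% in Thy1-. The median over 82 abundant names lay between 98.3% and 98.6%. Tags that begin before base 1 were not in the files, so only shorter 5′ ends could be counted.

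The files also name miR-26b*, the minor strand of the Mir26b hairpin, which RefSeq lists as miR-26b-3p at chr1:74394360-74394381 (plus strand). Its seed, in capitals, is another one.
miR-26b*: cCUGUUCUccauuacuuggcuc
It was rare, with 31 counts in the culture, 20 and 15 in Thy1+ and 36 and 60 in Thy1-, or 6.07 CPM in the culture, 21.3 and 15.8 in Thy1+ and 14.1 and 12.2 in Thy1-. The minor strand was 0.515% of both strands' reads in the culture, 2.40% and 1.06% in Thy1+ and 0.702% and 1.17% in Thy1-, with miR-26b sorted by base 11. Under TMM scaling its fitted log2 fold changes were -0.04 for Thy1+ over Thy1-, 0.02 for culture over Thy1+ and -0.07 for culture over Thy1- (edgeR adjusted p = 0.965, 0.983 and 0.943). Under total scaling they were 0.50, -1.61 and -1.11 in the same order (edgeR adjusted p = 0.540, 0.106 and 0.228), and none was called. No other miR-26 name had a count, so the minor strands of the miR-26a hairpins were not measured.

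By pattern over the 5 libraries, as filed, the closest of 469 other miRNAs to miR-26a were miR-210, known for its induction in hypoxia, miR-214* and miR-9*. Their root mean square differences from miR-26a in centred log2 TMM-scaled CPM were 0.158, 0.236 and 0.239, where the median of all was 1.24. The closest to miR-26b were miR-24-1* at 0.154, let-7i* at 0.189 and miR-193 at 0.291, where the median was 1.31. Some of these had very few counts in the 2 Thy1+ libraries: miR-9* had 2 and 3, miR-24-1* 5 and 7, and let-7i* 6 and 9. Their patterns are therefore uncertain. The others had more there: miR-193 had 26 and 37, miR-214* 100 and 113, and miR-210 226 and 308. The members themselves were 0.472 apart, which made miR-26b the 24th closest to miR-26a and miR-26a the 18th closest to miR-26b. This is a description over 5 libraries, with no test. The distances were not computed on reads sorted by base 11, which moves reads between the 2 members.

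The libraries differed in depth and in the cells they held. The culture had 5110008 miRNA counts, the Thy1+ libraries 937009 and 947681 and the Thy1- libraries 2548235 and 4909752. In bulk samples, fewer cells of a type and less RNA per cell cannot be told apart. The 9 listed germ cell miRNAs summed to 234786 CPM in the culture, 196900 and 110970 in Thy1+ and 64367 and 18836 in Thy1-. In the culture miR-34c alone made up 195532 CPM of that sum, and other listed members were lower there than in Thy1+: miR-880 was at 8749 CPM in the culture and at 46185 and 20989 in Thy1+, and miR-878-3p at 961 CPM in the culture and at 4971 and 5336 in Thy1+. Of the 9, 0 were called in culture against Thy1+ under TMM, where 22.3% of all miRNAs were, and 2 were called lower under total scaling. In Thy1+ against Thy1- under TMM, 6 of the 9 were called higher and 0 lower, where 20.5% and 7.76% of all miRNAs were. The 5 white blood cell miRNAs summed to 937 CPM in the culture, 14904 and 26541 in Thy1+ and 2017 and 1346 in Thy1-. All 5 were called higher in Thy1+ than in Thy1- (edgeR), where 20.5% of all miRNAs were. miR-142-3p carried most of that sum, at 818 CPM in the culture, 14318 and 25272 in Thy1+ and 1954 and 1294 in Thy1-. Unlike the sum, miR-155 was higher in the culture (92.8 CPM) than in Thy1- (9.81 and 6.72 CPM), with a log2 fold change of 4.55 under TMM. The 3 red blood cell miRNAs summed to 12.5 CPM in the culture, 252 and 179 in Thy1+ and 1344 and 1475 in Thy1-. All 3 were called lower in Thy1+ than in Thy1-, where 7.76% of all miRNAs were. The gonadal miR-202 products summed to 173 CPM in the culture, 1138 and 2205 in Thy1+ and 18584 and 3712 in Thy1-. Of these 2, 2 were called lower in Thy1+ than in Thy1- under TMM and 1 under total scaling. The 6 listed miRNAs of the pluripotency cluster miR-290 to miR-295 summed to 737 CPM in the culture, 6303 and 13371 in Thy1+ and 1029 and 602 in Thy1-. Of these, 5 were called higher in Thy1+ than in Thy1- and 0 lower. The endothelial miR-126 products summed to 562 CPM in the culture, 1918 and 2605 in Thy1+ and 964 and 1678 in Thy1-, with 0 called between the fresh fractions. No listed marker was at 0 in any library, and the part of these cells in the values of miR-26 was not tested.

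Most of the listed mesenchymal markers were also called higher in the culture than in Thy1+ under TMM scaling. The 6 listed products of the miR-143, miR-145, miR-199 and miR-214 hairpins summed to 64977 CPM in the culture, 27211 and 38089 in Thy1+ and 46252 and 30853 in Thy1-. miR-143 and the miR-199 products carry that sum, and miR-145 was lower in the culture than in any fresh library, at 234 CPM in the culture, 313 and 310 in Thy1+ and 830 and 323 in Thy1-. miR-145 was not called, at 1.24 on the log2 scale for culture over Thy1+ and -0.19 for culture over Thy1- (edgeR adjusted p = 0.205 and 0.858). miR-199a-3p and miR-199b share all their tags and are 1 measurement. Of the 6 names, 5 were called higher in the culture than in Thy1+ and 3 higher than in Thy1-, with none lower. Under the same TMM scaling, 8.94% and 18.1% of all miRNAs were called higher. Under total scaling none of the 6 were called in either comparison, where 173 and 155 of all miRNAs tested were called in either direction. Whether the culture had feeder cells is not given in the sources used here, and the part of mesenchymal cells in the level of miR-26a was not tested. A list of 17 miRNAs made by many cell types, without miR-26, gave 4 called higher and 0 lower in the culture than in Thy1+, with a median log2 fold change of 0.76 where all miRNAs had -0.09. For Thy1+ over Thy1-, 0 of 17 were called, with a median of -0.95 where all miRNAs had -0.07. For culture over Thy1-, 2 were called higher and 0 lower, with a median of -0.16 where all had -0.15. Under total scaling the medians of this list were -0.86 for culture over Thy1+, -0.45 for Thy1+ over Thy1- and -1.23 for culture over Thy1-, so the sign of the first flipped, where all miRNAs had -1.73, 0.51 and -1.19. The calls in the list under total scaling were 0 in culture against Thy1+, 0 in Thy1+ against Thy1-, and 1 higher and 2 lower in culture against Thy1-. Set beside the TMM medians, in the same order, miR-26a as filed was at 2.20, -0.75 and 1.40, and miR-26b at 1.85, -1.48 and 0.32. Under total scaling miR-26a as filed was at 0.53, -0.19 and 0.34, and miR-26b at 0.17, -0.95 and -0.78.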

How the data were processed

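Small RNA from 5 mouse testis cell libraries was sequenced by the Illumina protocols, per the labels. The deposited files hold raw read counts per distinct tag, which the authors did not normalize as far as the whole numbers show. Per tag they list the mature miRNA and position of each placement, with at most 2 mismatches. The file names give miRBase 12.0 as the annotation and 35 bases as the upper length, while the longest tag found has 25 bases and the shortest 15. DESeq is named in the submitters' processing notes, with no version or role. Adapter removal, aligner and genome build are not stated in these sources. Only miRNA reads are in the files, so depth means miRNA counts.

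Each tag was counted under its best placement, ties (at most 8 names) being split equally and sums rounded. Sorting by base 11 reassigned the tags of both members and left other names as filed. Fits used R 4.3.3, edgeR 4.0.16 (quasi-likelihood, TMM, filterByExpr, two-sided, adjusted p under 0.05), with DESeq2 1.42.0 and limma 3.58.1 as alternatives. Thy1+ was set against Thy1- with the 4 fresh libraries only, and the culture was compared in fits of all libraries. Scripts were checked on counts simulated with less spread between libraries than these data had, so that check does not give the power of the tests here. Intervals are 95% Clopper-Pearson (scipy 1.17.1) and cover counting error only, since reads carry no molecular identifiers. Replicates differed far beyond sampling noise and were kept apart.

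The members, the marker lists (germ cell, pluripotency cluster, gonadal, mesenchymal, endothelial, white and red blood, and 17 broadly made miRNAs) and the tests were chosen with earlier results of these data known. The miRNAs named are the members, minor strands of miR-26 hairpins that the files name, and the 3 miRNAs nearest to each member in centred log2 TMM-scaled CPM with a prior count of 2. End variants with at least 1% of a member's reads were to be described. Alternatives were other scalings, tools and filters, perfect tags only, ties left out, replicate blocks, each fresh library left out, the base 11 sorting and both names summed, the last 2 added after the tags were seen. Sequences and positions are from RefSeq (GRCm38.p6) and host genes from GENCODE.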

Additional observations from a re-analysis of the deposited data

How the results depend on the processing

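Apart from leaving out single libraries, 100 values of the main results kept their direction and side of the threshold (for counts, stayed within 1.5 times), 4 moved further, 4 reversed, 3 gained and 2 lost the threshold; those that changed are given here. The differences of replicate 1 minus replicate 2 were almost uncorrelated between Thy1+ and Thy1- (r = -0.09 over 470 miRNAs). This cannot settle whether fresh libraries with the same number were paired. With the replicate block, the count called for Thy1+ against Thy1- was 32 (120 without it), and the members were at -0.74 (miR-26a, edgeR adjusted p = 0.353) and -1.44 (miR-26b, edgeR adjusted p = 0.153). Leaving out 1 library at a time gave 0 to 138 calls for this comparison, 0 to 128 for culture against Thy1+ and 55 to 135 for culture against Thy1- (164 with all libraries), with 0 calls in the first and second without either Thy1+ library. It gave 0 to 5 called 3′ end variants for culture against Thy1+ and 1 to 8 for culture against Thy1-; with perfect tags only these were 0 and 1. Total count scaling gave 173 calls for culture against Thy1+ (105 with TMM).

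In log2 fold changes, miR-26b in Thy1+ over Thy1- was -1.53 with DESeq2 and -1.83 to -0.83 with 1 library left out. miR-26a in culture over Thy1+ was 0.53 under total counts, 0.63 sorted under total counts and 1.90 to 2.20 with 1 library left out. miR-26b there was 1.95 without a filter (edgeR adjusted p = 0.0345), 1.91 with DESeq2 (adjusted p = 0.0324), -0.0052 sorted under total counts and 1.56 to 1.85 with 1 library left out, passing without Thy1- replicate 2 (edgeR adjusted p = 0.0376). miR-26b in culture over Thy1- was -0.78 under total counts, -0.37 sorted under total counts and -0.037 to 0.60 with 1 library left out. The rare miR-26b* changed sign freely: 0.50 under total counts, as filed and sorted, and -0.45 to 0.32 with 1 library left out for Thy1+ over Thy1-; -1.61 under total counts, as filed and sorted, and -0.61 to 0.38 for culture over Thy1+; 0.055 without ties and 0.0075 sorted for culture over Thy1-. With both names summed, the family was at -0.82, 2.17 and 1.31 in the 3 comparisons (edgeR adjusted p = 0.200, 0.0292 and 0.0904).

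The Thy1+ minus Thy1- difference in the mean last base of miR-26b was 0.208 sorted, and -0.127 to 0.00674 as filed with 1 library left out; its share at the annotated end differed by -9.57 to 2.50 percentage points. The log2 ratio of the members differed by 0.38 to 1.02 with 1 library left out. Beyond the filing and the scale, the cause of these changes was not tested. The shallowest Thy1+ library held 274 counts filed under miR-26b, which limits every share of that member there.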
